A study of Mus musculus with 68 samples.

Results

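First pharyngeal arches of mouse embryos labelled Hoxa2-/- were compared between embryonic day 9.5 (E9.5) and E9.0. The comparison used 9 of the 68 RNA sequencing libraries of the series: all 5 libraries labelled pharyngeal arch 1 (PA1), Hoxa2-/-, E9.5, and all 4 with the same labels at E9.0. The embryos came from a CBA/Ca/J x C57BL/10 strain background. Each library was made from hand-dissected PA1, each replicate stands for a separate embryo whose PA1 and PA2 were both collected, per the series text, and wildtype PA1 and the second arch (PA2) at the same stages served for reference. Values are CPM, the reads of a gene scaled to library depth, and a difference is the mean log2(CPM + 1) at E9.5 minus that at E9.0. A dissected arch holds several tissues, so a lower level can mean fewer cells of a type or less RNA per cell, and these cannot be told apart here.

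PA1 is the swelling beside the embryonic throat that forms the jaws. At these stages it fills with cranial neural crest cells, which leave the dorsal neural tube, migrate into the arch and become ectomesenchyme, the source of the face's cartilage, bone and connective tissue. Around them lie a core of mesoderm, which gives muscle and vessels, and an epithelial cover of ectoderm and endoderm, which sends signals such as endothelin, FGF and BMP. Migrating crest cells express Sox10, a transcription factor gene that is switched off in ectomesenchyme, while homeobox genes such as Barx1 and the Dlx, Lhx and Hand genes mark regions of the jaw primordium.

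Hoxa2, the homeobox gene that gives PA2 its identity and that PA1 normally lacks, was near 0 in all 9 libraries: 0, 0, 0.398 and 0.0631 CPM at E9.0 and 0.33, 0.237, 0.282, 0.457 and 0.3395 CPM at E9.5, each in the order of replicates 1 to 4 and 1 to 5, as throughout. At this depth 3 reads corresponded to 0.189 to 0.299 CPM. In PA2 the label was not borne out by this gene, because PA2 labelled Hoxa2-/- held 28.7 ± 8.41 CPM (SD, n = 4) at E9.0 and wildtype PA2 22.3 ± 1.4 CPM (SD, n = 4). How the allele was made, and whether such a transcript would still be counted, is not given in the sources used here, so the embryos are called labelled Hoxa2-/- throughout. All 14 measured members of the Hox list were too low to be tested in PA1, with summed levels of 1.298 to 5.38 CPM at E9.0 and 1.58 to 18.6 CPM at E9.5. The 18.6 CPM came from E9.5 replicate 3 alone, and the other E9.5 libraries were at 1.58 to 4.75 CPM.

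The 9 libraries held 10421916 to 16217111 reads in genes. The typical gene varied by an SD of 0.146 on the log2 scale within E9.0 and 0.191 within E9.5. E9.5 replicate 3 stood apart: 463 genes lay more than 1 log2 unit above the mean of the other E9.5 libraries, against 16 to 75 in those others. Among them were genes of mesothelium and fibrous matrix, chosen here after their values were seen, such as Upk3b at 1.19, 1.74, 57.6, 0.718 and 0.204 CPM, Lrrn4 at 21.6, 13.9, 93.3, 5.74 and 4.01 CPM and Col1a1 at 28.6, 21.8, 1822, 18.7 and 8.28 CPM over the 5 E9.5 libraries. E9.5 replicate 4 had 182 genes more than 1 log2 unit below the others. Within E9.0, replicates 1 and 3 lay together on many of the genes below, as did replicates 2 and 4, and each of these pairs held 1 male and 1 female. By Xist and Y-linked transcripts, 2 of 4 embryos at E9.0 and 4 of 5 at E9.5 were female, so sex is not balanced over the groups.

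Of 16029 genes tested by limma on the 9 libraries, 35 passed an adjusted p of 0.05, which is 0.218% of the genes: 21 were higher and 14 lower at E9.5. Without adjustment 2195 genes had p under 0.05. When the error was estimated from all 68 libraries, the same differences passed for 528 genes (3.29%), 348 higher and 180 lower, and all 35 genes were among them. That error pooled all groups of the series, and the typical SD within the other groups ran from 0.102 to 0.263. It also took PA1 and PA2 of 1 embryo as independent. It may therefore understate the spread of these 9 libraries. In all 35 the 4 values at E9.0 and the 5 at E9.5 did not overlap, as was true of 861 genes or 5.37% of those tested. The calls depended on single libraries: with E9.0 replicate 1, E9.0 replicate 3 or E9.5 replicate 5 left out, the 9-library fit called 0 genes, and with sex as a covariate it also called 0. With each library left out in turn the 68-library fit called 187 to 731 genes (401 without E9.5 replicate 3, 240 without E9.5 replicate 4, 202 without E9.0 replicate 1, 187 without E9.0 replicate 3), and 140 of the 528 passed in every one of these 9 fits. Without E9.5 replicate 3 the 68-library fit called 258 of the 16029 genes higher and 143 lower. These are the totals to set beside each list count given below without that library. Below, genes are said to have risen or fallen only where they passed, and the fit is named where it was the 68-library one. Genes named as passing only in the 68-library fit were chosen after their values were seen, except Barx1, Lhx6, Lhx8, Bcl11a, Hand2 and Tbx1, which were to be given whatever their result. Among those named below, Barx1, Gbx2, Msx1, Twist2, Dlx6os1, Fabp7, Egfl7, Nkx2-6, Gdf6, Fzd7, Has2, Hapln1, Fbln5, Mfap4, Perp, Asb4 and Ldhb passed in that fit whichever of the 9 libraries was left out, and each other gene passing only there lost its call without at least 1 library. Of the 35, Art4, Gypc, Hesx1, Klhl23, Rarres1 and Tmem200b also lost it in at least 1 of those fits.

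**Figure D1:**
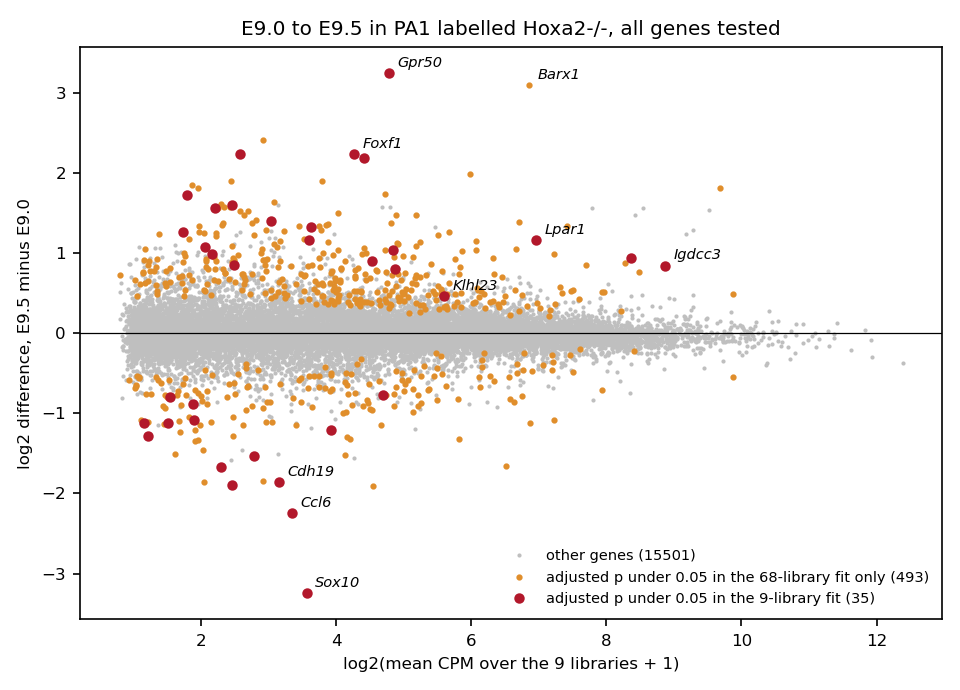
Log2 difference between E9.5 and E9.0 in PA1 labelled Hoxa2-/- (vertical axis, log2(CPM + 1) scale) against the mean level over the 9 libraries (horizontal axis, log2 scale), 1 point per gene for 16029 genes. Red points are the 35 genes passing in the 9-library fit and orange points the 493 passing only in the 68-library fit; Gpr50 and Sox10 lie farthest from 0 among the red points.

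Several genes of jaw patterning rose. The list of PA1 identity and jaw genes had 15 of 16 members tested, of which 1 rose in the 9-library fit and 7 in the 68-library fit and none fell, against 0.131% and 2.17% of all genes higher in these fits. Its median difference was 0.945, against -0.002 over all genes tested. Without E9.5 replicate 3, 8 rose and none fell in the 68-library fit.

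Gpr50, which encodes an orphan receptor related to the melatonin receptors, gave the largest rise of the 35 genes. Its values were 0.611, 7.02, 1.89 and 7.95 CPM at E9.0 and 26.9, 22.4, 38.2, 84.9 and 48.8 CPM at E9.5. Every E9.5 library lay above every E9.0 library, and E9.0 replicates 1 and 3 were the lowest. The mean went from 4.37 ± 3.65 CPM (SD, n = 4) to 44.2 ± 24.9 CPM (SD, n = 5), a difference of 3.24 on the log2 scale (SE 0.51, adjusted p = 0.044). Barx1, a homeobox gene of the proximal jaw mesenchyme and of tooth-forming regions, differed by almost as much, at 5.96, 67.6, 5.78 and 54.4 CPM at E9.0 and 155, 246, 116, 210.3 and 173 CPM at E9.5. E9.0 replicates 1 and 3 were far below replicates 2 and 4, and the groups did not overlap. The log2 difference was 3.09 (SE 0.66; adjusted p = 0.078 with 9 libraries and 0.00014 with 68). Barx1 rose in the 68-library fit only, from a mean of 33.4 ± 32.3 CPM (SD, n = 4) to 180.0 ± 50.1 CPM (SD, n = 5).

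The reference sequence at the start of these 2 genes is shown because they gave the largest positive differences among the genes named, and the start of Dlx4os because it lies inside a neighbouring gene that moved with it. Each covers 250 bases before and 50 bases from the RefSeq transcription start on build GRCm38.p6, with the 50 bases from the start in capitals, all on the plus strand.
Barx1, chr13:48662786-48663085: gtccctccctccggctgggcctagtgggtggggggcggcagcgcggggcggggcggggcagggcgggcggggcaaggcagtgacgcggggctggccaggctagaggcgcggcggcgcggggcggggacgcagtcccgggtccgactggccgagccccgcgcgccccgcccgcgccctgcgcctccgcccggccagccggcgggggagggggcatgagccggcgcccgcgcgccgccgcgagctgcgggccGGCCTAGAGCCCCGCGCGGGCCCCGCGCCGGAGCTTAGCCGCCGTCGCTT
Gpr50, chrX:71663417-71663716: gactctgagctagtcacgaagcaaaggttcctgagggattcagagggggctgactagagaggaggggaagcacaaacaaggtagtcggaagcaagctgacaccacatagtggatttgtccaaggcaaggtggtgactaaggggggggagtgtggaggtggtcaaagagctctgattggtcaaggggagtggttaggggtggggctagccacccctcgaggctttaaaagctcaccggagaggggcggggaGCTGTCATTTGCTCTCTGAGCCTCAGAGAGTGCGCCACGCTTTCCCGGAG
Dlx4os, chr11:95144803-95145102: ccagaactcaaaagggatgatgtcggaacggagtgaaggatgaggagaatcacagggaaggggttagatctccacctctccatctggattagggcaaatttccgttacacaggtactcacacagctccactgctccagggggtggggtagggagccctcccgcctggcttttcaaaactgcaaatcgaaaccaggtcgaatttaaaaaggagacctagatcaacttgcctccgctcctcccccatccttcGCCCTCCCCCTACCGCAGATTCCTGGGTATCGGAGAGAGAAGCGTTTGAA
The Barx1 window held 50 CG pairs, the Gpr50 window 8 and the Dlx4os window 11, and the median over all such windows of that length in the table was 7. The E-box CANNTG, which reads the same pattern on both strands, occurred 1 time each in the Gpr50 and Dlx4os windows and not in the Barx1 window, and 72.3% of all windows held it. The homeodomain motif TAATTA, also its own reverse complement, was in none of the 3 and in 5.29% of all. A match of letters is a description of the window only.

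Foxf1, a forkhead gene and hedgehog target of arch mesenchyme, was measured at 1.99, 8.34, 3.58 and 7.88 CPM at E9.0 and 18.4, 15.7, 36.1, 46.2 and 25.5 CPM at E9.5. It rose by 2.23 on the log2 scale (SE 0.38, adjusted p = 0.049), with E9.5 replicates 4 and 3 highest. Its gene, on chromosome 8 at 121084386 to 121088144, overlaps 2 predicted genes, and whether counting used strand is not given in the sources used here. Gbx2, a homeobox gene of anterior arch ectoderm and mesenchyme, stood at 0.534, 2.71, 0.797 and 2.59 CPM at E9.0 and 6.203, 10.4, 4.37, 5.48 and 6.45 CPM at E9.5, without overlap of the groups. It rose in the 68-library fit only, by 1.57 (SE 0.30; adjusted p = 0.057 with 9 libraries and 1.8e-05 with 68). Cited1, a transcriptional co-regulator, rose there with a difference of 0.90 (adjusted p = 0.029 with 68 libraries).

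Lhx6, a LIM-homeobox gene of the oral mesenchyme, was at 1.37, 1.52, 0.996 and 1.198 CPM at E9.0 and 2.24, 3.32, 2.396, 16.1 and 3.94 CPM at E9.5. Lhx8, its relative in the same tissue, was at 2.52, 6.42, 4.58 and 6.88 CPM at E9.0 and 7.39, 9.49, 6.06, 55.5 and 15.3 CPM at E9.5. In both genes E9.5 replicate 4 was several times above the other 4 E9.5 libraries. The 9-library fit gave adjusted p = 0.23 for Lhx6 and 0.31 for Lhx8, and both rose in the 68-library fit (0.005 and 0.024). Pitx1, a homeobox gene of the mandibular arch, did not pass in either fit at 31, 34.6, 20.7 and 32.6 CPM at E9.0 and 27.9, 43.5, 17.8, 43.8 and 32.9 CPM at E9.5, and its difference was 0.11 (SE 0.24).

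**Figure D2:**
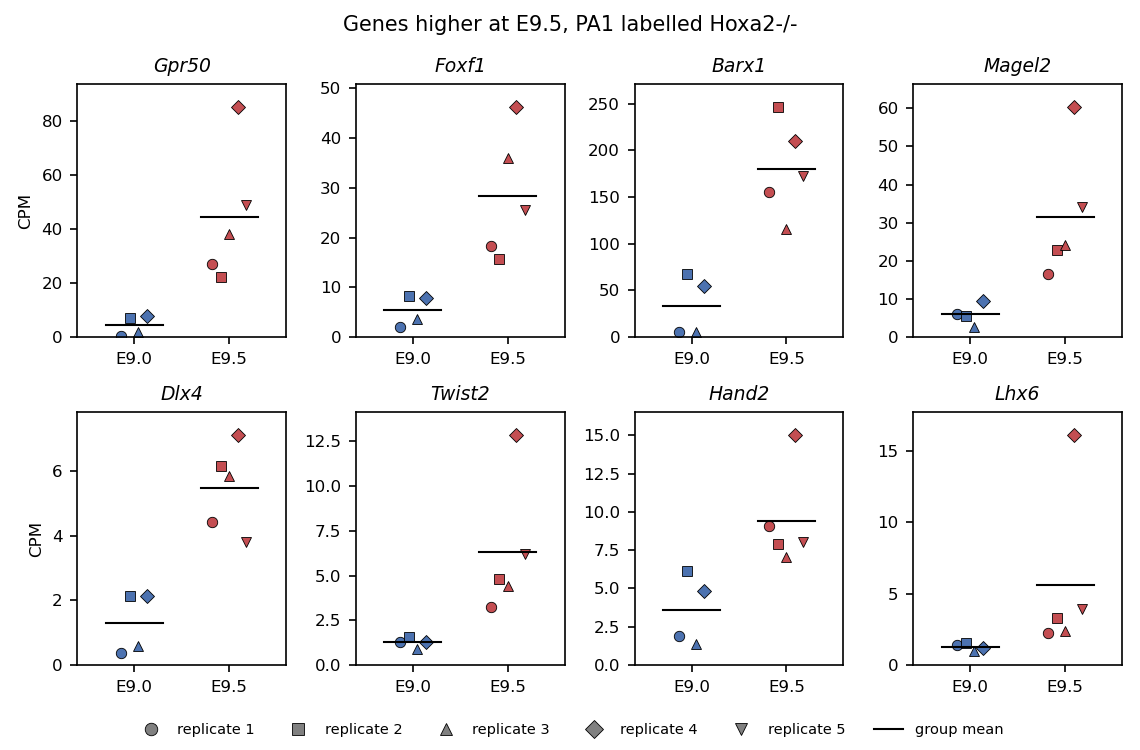
CPM in each library (vertical axis, linear from 0, scaled per gene) at E9.0 (blue, 4 libraries) and E9.5 (red, 5 libraries) for 8 genes; symbols are replicate numbers, which pair no embryos across stages, and lines are group means. The groups do not overlap in any of the 8 genes, and E9.5 replicate 4 (diamond) is the highest in all but Barx1.

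Genes listed for dorsoventral patterning by endothelin changed in both directions. Endothelin-1 from arch epithelium and core acts on the receptor Ednra in crest cells and, through Dlx5 and Dlx6, sustains ventral genes including Dlx3, Dlx4 and Hand2. Of 20 tested members of this list, 1 rose and none fell in the 9-library fit, where 0.131% of all genes rose. In the 68-library fit 3 rose and 3 fell, where 2.17% of all genes rose and 1.12% fell. Without E9.5 replicate 3, 3 rose and 2 fell there, where 258 of all 16029 genes rose and 143 fell. With members going both ways, the list's median difference was 0.030.

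Dlx4, a homeobox gene of the ventral arch, was measured at 0.382, 2.12, 0.597 and 2.15 CPM at E9.0 and 4.42, 6.17, 5.85, 7.11 and 3.803 CPM at E9.5 and rose by 1.56 on the log2 scale (SE 0.27, adjusted p = 0.049). Its antisense gene Dlx4os rose by 2.23 on the log2 scale (SE 0.36, adjusted p = 0.049), from 0.229, 1.72, 0.199 and 1.64 CPM to 3.76, 9.25, 8.39, 14.5 and 5.09 CPM. In both genes E9.0 replicates 1 and 3 were below replicates 2 and 4. Dlx4 lies on the minus strand of chromosome 11 at 95140447 to 95146263 and Dlx4os on the plus strand at 95145052 to 95159047 (GRCm38, GENCODE M21). Their annotated exons share 79 bases, from 95145196 to 95145274, within exon 1 of each. The start of Dlx4os shown above lies in an intron of Dlx4. Reads from the pair cannot be told apart in the shared bases without strand.

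Hand2, a bHLH gene of the ventral arch, was at 1.91, 6.16, 1.39 and 4.86 CPM at E9.0 and 9.04, 7.91, 7.05, 15 and 8.01 CPM at E9.5 and rose in the 68-library fit, by 1.28 (SE 0.32; adjusted p = 0.13 with 9 libraries and 0.0027 with 68). Dlx3 was at 13.7, 46.1, 15.7 and 44.3 CPM at E9.0 and 74.2, 91.98, 43.2, 58.8 and 60.2 CPM at E9.5, overlapping only through E9.5 replicate 3, and rose in the same fit by 1.26 (adjusted p = 0.013). Dlx5 and Dlx6, the genes upstream of them, passed in neither fit, with differences of 0.14 (SE 0.27) and 0.42 (SE 0.26). Dlx6os1, a long RNA antisense to Dlx6 that could share reads with it, rose in the 68-library fit by 1.98 (adjusted p = 0.00082), from 8.78, 43.1, 10.4 and 51.9 CPM to 68.96, 104.6, 83.01, 103 and 86.1 CPM.

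The ligand gene Edn1 was at 21.8, 28.5, 16.1 and 33.1 CPM at E9.0 and 28.1, 25.7, 16, 9.26 and 15.2 CPM at E9.5 and passed in neither fit (-0.43, SE 0.30). Its receptor gene Ednra fell in the 68-library fit from a mean of 52.3 ± 13.9 CPM (SD, n = 4) to 31.3 ± 5.32 CPM (SD, n = 5), with adjusted p = 0.0091. Mef2c, a MADS-box gene active in crest, muscle and endothelium, fell in that fit by 1.32 on the log2 scale (adjusted p = 0.0041), at 115, 61.2, 102 and 53.4 CPM at E9.0 and 55.1, 31.9, 25.4, 18.3 and 34.8 CPM at E9.5. Nr2f1, a nuclear receptor gene of dorsal arch, fell there too (-0.60, adjusted p = 0.049). Hand1, another bHLH gene of the distal arch and of heart and pericardium, was at 3.28, 10.4, 11.2 and 7.88 CPM at E9.0 and 21.5, 10.3, 135, 32.3 and 8.22 CPM at E9.5. E9.5 replicate 3, the library with mesothelial and matrix genes, held its highest value, and Hand1 passed in neither fit (adjusted p = 0.33 and 0.18). Its difference without that library was 0.97, against 1.57 with it.

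A minority of ectomesenchyme genes rose. Of 32 tested members none passed in the 9-library fit, and the median difference was 0.143. In the 68-library fit 6 rose and 1, Nr2f1, fell, where 2.17% of all genes rose and 1.12% fell. Without E9.5 replicate 3, 7 rose and none fell in that fit. In 9 of the 32 the groups did not overlap, with E9.5 higher, where 3.19% of all genes did, and in 1 with E9.5 lower. Twist2, a bHLH gene of mesenchyme, stood at 1.298, 1.59, 0.896 and 1.26 CPM at E9.0 and 3.23, 4.82, 4.44, 12.8 and 6.18 CPM at E9.5, with a 9-library adjusted p of 0.052 and a 68-library one of 0.00015. Msx1, a homeobox gene downstream of BMP, was at 71.5, 125, 72.6 and 119.8 CPM at E9.0 and 175, 171, 181, 258 and 161 CPM at E9.5, and its rise in the 68-library fit was 0.98 (adjusted p = 0.00065). Bcl11a, a zinc finger gene of jaw mesenchyme and neurons, went from 0.0764, 0.199, 0 and 0.694 CPM to 1.06, 1.82, 2.54, 16.3 and 2.99 CPM. It rose in the 68-library fit, by 1.81 (SE 0.50; adjusted p = 0.15 with 9 libraries and 0.0097 with 68), and E9.5 replicate 4 was again far above the others. Its relative Bcl11b was not tested, because it did not reach 1 CPM in at least 4 of the 9 libraries. The Bcl11b values were 0.153, 0.463, 0.398 and 0.315 CPM at E9.0 and 0.594, 0.791, 0.564, 9.26 and 2.17 CPM at E9.5. Foxp2, a forkhead gene, rose by 0.77 in the 68-library fit (adjusted p = 0.02).

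General mesenchyme genes had overlapping groups and passed in neither fit. Twist1, a bHLH gene of crest mesenchyme, was at 57.1, 72.8, 45.9 and 55.7 CPM at E9.0 and 62.03, 53.9, 30.8, 45.5 and 49.5 CPM at E9.5, a difference of -0.27 (SE 0.18). Pdgfra, a growth factor receptor gene of mesenchyme, was at 143, 126, 129 and 115 CPM at E9.0 and 141, 106, 163, 129 and 129 CPM at E9.5, a difference of 0.05 (SE 0.11). Sox9, of crest and cartilage precursors, was at 86.3, 118, 87.2 and 112 CPM at E9.0 and 124, 116, 67.2, 118 and 121 CPM at E9.5, a difference of 0.09 (SE 0.18). Prrx1, a homeobox gene of limb and face mesenchyme, was at 60.01, 88.6, 67.8 and 94.7 CPM at E9.0 and 107, 103, 79.2, 216 and 121 CPM at E9.5. Its difference of 0.62 passed in neither fit (adjusted p = 0.085 with 68 libraries), and replicate 4 was highest.

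Several genes of migrating neural crest and early glia fell. Of 14 tested members of that list, Sox10 fell in the 9-library fit, where 0.0873% of all genes did. In the 68-library fit 6 fell and 1 rose, where 1.12% of all genes fell. The list's median difference was -0.492 and 11 of the 14 were negative. The summed level of its 16 measured members was 525 to 848 CPM at E9.0 and 367 to 530.4 CPM at E9.5. Without E9.5 replicate 3, 4 fell and none rose in the 68-library fit. Neural tube markers were also mostly lower. The 7 tested had a median of -0.808, 4 of them had groups that did not overlap, with E9.5 lower, where 2.18% of all genes did, and the summed level of the 18 measured was 59.6 to 75.1 CPM at E9.0 and 30.1 to 54.3 CPM at E9.5. These sums did not overlap between stages, while those of the crest list did. Of the 18, 10 averaged under 1 CPM, Pax6, Sox3 and Hes5 among them, and Fabp7 is on both lists. The part of neural tube tissue in the crest differences was not tested.

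Sox10 was at 48.3, 9.798, 25.6 and 8.07 CPM at E9.0 and 1.72, 1.58, 0.916, 0.261 and 0.883 CPM at E9.5. All 5 libraries at E9.5 were below 2 CPM, and E9.0 replicates 1 and 3 were the highest, the same libraries that were lowest for Barx1 and Gpr50. The group mean was 21.4 times higher at E9.0, and the log2 difference was -3.24 (SE 0.44, adjusted p = 0.028). Cdh19, a cadherin gene of crest-derived Schwann cell precursors, was at 24.1, 8.94, 13.1 and 9.97 CPM at E9.0 and 4.42, 3.16, 2.61, 1.63 and 2.99 CPM at E9.5 and fell by 1.86 on the log2 scale (SE 0.27, adjusted p = 0.028).

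Fabp7, a fatty acid binding protein gene of glia, went from 5.42, 2.98, 6.37 and 3.22 CPM to 1.78, 1.42, 1.48, 0.652 and 1.29 CPM. The neuregulin receptor gene Erbb3 and the AP-2 genes Tfap2a and Tfap2b, which act in crest and in ectoderm, fell in the 68-library fit with differences of -0.77, -0.47 and -0.69. Fabp7 fell there by 1.21 on the log2 scale (adjusted p = 0.00074). Foxd3, a gene of the earliest crest, had at most 2 reads in any of the 9 libraries and was not tested. Snai2, a zinc finger gene of crest and mesenchyme, was the member that rose (0.63, adjusted p = 0.023 in the 68-library fit). Its highest value was in E9.5 replicate 3, at 36.4, 35.1, 27.7 and 48.8 CPM at E9.0 and 36.9, 49.7, 104, 53.2 and 57.2 CPM at E9.5, and without that library the adjusted p was 0.18. L1cam, an adhesion gene of crest and axons, fell in the 68-library fit at 9.77, 9.86, 19.6 and 6.12 CPM at E9.0 and 6.005, 3.56, 1.06, 0.522 and 2.24 CPM at E9.5 (difference -1.85, adjusted p = 0.0033).

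**Figure D3:**
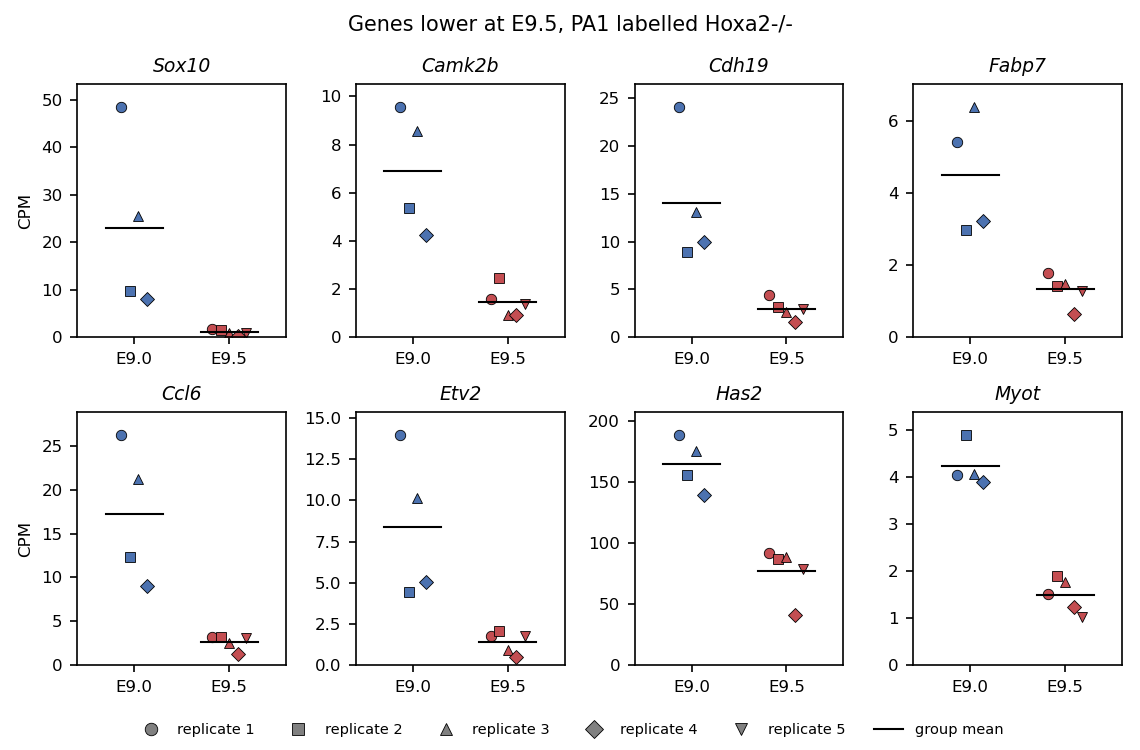
CPM in each library (vertical axis, linear from 0, scaled per gene) at E9.0 (blue, 4 libraries) and E9.5 (red, 5 libraries) for 8 genes; symbols are replicate numbers and lines are group means. The groups do not overlap in any panel, and E9.0 replicates 1 (circle) and 3 (triangle) are the 2 highest E9.0 libraries in all but Myot.

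Other genes among the 14 that fell are known from varied tissues. Ccl6, a chemokine gene, was at 26.3, 12.3, 21.3 and 9.02 CPM at E9.0 and 3.23, 3.16, 2.47, 1.305 and 3.06 CPM at E9.5 and fell by 2.25 on the log2 scale (SE 0.29, adjusted p = 0.028). Camk2b, a calcium-dependent kinase gene of neurons and muscle, was at 9.54, 5.36, 8.56 and 4.23 CPM at E9.0 and 1.58, 2.45, 0.916, 0.913 and 1.36 CPM at E9.5, a difference of -1.67 on the log2 scale (SE 0.24, adjusted p = 0.028). Slc27a6, a fatty acid transporter gene, differed by -1.53 (SE 0.26). Ocln, the tight junction gene occludin, was at 38.9, 28.9, 31.4 and 30.3 CPM at E9.0 and 19.5, 22.3, 16.8, 15.2 and 19.3 CPM at E9.5, a difference of -0.77 (SE 0.13). Pamr1, Rarres1, Cp, Myot, Gas7, Hesx1 and the unnamed transcript D030007L05Rik were also called lower, with differences of -1.28, -1.12, -1.12, -1.08, -0.88, -0.80 and -1.21. Among them Pamr1, Gas7, Hesx1 and D030007L05Rik were picked with their values in view, outside the naming rule. Hesx1, a homeobox gene of anterior ectoderm and pituitary, ranged over 3.51, 2.58, 2.59 and 2.52 CPM at E9.0 and 0.792, 1.26, 1.198, 1.24 and 1.43 CPM at E9.5.

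Mesodermal and vascular genes were mostly lower in sign, with few calls. Of 36 tested endothelial genes 1 fell in the 9-library fit, where 0.0873% of all genes did. In the 68-library fit 3 fell and 1 rose, where 1.12% of all genes fell and 2.17% rose, and without E9.5 replicate 3, 2 fell and 1 rose. Of the 36, 27 were negative, with a median of -0.413. Etv2, the ETS factor that starts the blood vessel and blood lineages, was at 13.97, 4.44, 10.2 and 5.05 CPM at E9.0 and 1.78, 2.06, 0.916, 0.457 and 1.77 CPM at E9.5 and fell by 1.90 on the log2 scale (SE 0.32, adjusted p = 0.049). Egfl7, a secreted vessel protein gene, and Gpr182, a vessel receptor gene, fell in the 68-library fit (-0.53 and -0.71), while Robo4, an endothelial guidance receptor gene, rose (0.80, adjusted p = 0.036). The summed endothelial level was 977 to 1202 CPM at E9.0 and 750.2 to 1188 CPM at E9.5, so the ranges overlapped. Of 16 tested cranial mesoderm genes 14 were negative with a median of -0.279, and in the 68-library fit 3 fell and 1 rose, against 1.12% and 2.17% of all genes. With E9.5 replicate 3 left out, 1 fell and 1 rose. Their summed level was 498 to 582 CPM at E9.0 and 347 to 459.7 CPM at E9.5, and these ranges did not overlap. Tbx1, a T-box gene of pharyngeal mesoderm and endoderm, was at 32.8, 26.1, 32.4 and 19.7 CPM at E9.0 and 22.5, 18.03, 8.46, 7.44 and 23.2 CPM at E9.5 and fell there by 0.87 on the log2 scale (adjusted p = 0.039). Without E9.5 replicate 3 its adjusted p was 0.17. Ebf2 fell by 0.87 on the log2 scale and its relative Ebf3 rose by 0.93 in that fit. Myf5, the first muscle determination gene, was below the level tested at 0.0764, 0.463, 0 and 0.505 CPM at E9.0 and 0.924, 0.949, 0.775, 1.5 and 0.611 CPM at E9.5. The 13 tested pharyngeal endoderm genes had a median of -0.577 and 1 call with 68 libraries. Nkx2-6, a homeobox gene of pharyngeal pouch endoderm, fell at 4.73, 4.303, 5.18 and 4.29 CPM at E9.0 and 4.03, 1.19, 0.493, 0.522 and 1.22 CPM at E9.5 (adjusted p = 0.0047).

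Primitive red cell transcripts were higher in nearly all members. Of 28 tested, 27 were positive with a median difference of 0.955. Only Gypc, the glycophorin C gene of the red cell membrane, passed in the 9-library fit, where 0.131% of all genes rose. Only Gypc and Hbb-y, an embryonic globin gene, passed in the 68-library fit, where 2.17% of all genes rose and 1.12% fell. The summed level ranged over 923 to 3204 CPM at E9.0 and 2742 to 6779 CPM at E9.5, and the ranges overlapped. In wildtype PA1 the list's median difference was -0.143. Gypc was at 19.7, 21.6, 14.3 and 23.8 CPM at E9.0 and 29.8, 33.9, 36.6, 36.2 and 37.4 CPM at E9.5, a difference of 0.80 on the log2 scale (SE 0.14, adjusted p = 0.049). Hbb-y was at 331, 289, 158 and 642 CPM at E9.0 and 637, 1738, 1728, 807 and 1045 CPM at E9.5. Without E9.5 replicate 3 neither passed in the 68-library fit (adjusted p = 0.074 and 0.11). Art4, a blood group antigen gene outside the list and the naming rule, also rose, from 1.45, 1.66, 2.19 and 2.27 CPM to 4.42, 5.299, 5.003, 3.98 and 4.75 CPM. It was picked with its values in view. The part of blood in these differences was not tested. Nearly all macrophage markers were close to 0, since 19 of 22, Csf1r, Ptprc and Adgre1 among them, averaged under 1 CPM. Heart muscle genes summed to 116 to 227 CPM at E9.0 and 61.8 to 376 CPM at E9.5, with no call among 18 tested in either fit. Of the neuronal list 12 were tested and 1, Ina, fell in the 68-library fit (-1.45). Of the 7 tested neural tube genes, Gbx2 rose and Fabp7 and Otx2 fell in that fit.

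Hgf, Lpar1, Gnas and Igdcc3, which act in signalling, were among the 21 genes that rose. Hgf, the ligand of the Met receptor that guides migrating muscle precursors and axons, was at 2.29, 3.84, 3.09 and 3.72 CPM at E9.0 and 9.305, 7.59, 8.597, 14.4 and 11.7 CPM at E9.5. The rise was 1.40 on the log2 scale (SE 0.19, adjusted p = 0.028), and Hgf passed in 14 of 19 fits with other settings or a library left out. Lpar1, a lysophosphatidic acid receptor gene, was at 66.7, 85.1, 49.8 and 90.9 CPM at E9.0 and 133, 141, 143, 233 and 168 CPM at E9.5, from a mean of 73.1 ± 18.7 CPM (SD, n = 4) to 164 ± 40.9 CPM (SD, n = 5), and rose by 1.16 (SE 0.19, adjusted p = 0.049). Gnas, which encodes the stimulatory G protein alpha subunit, rose by 1.17 (SE 0.16) at 5.497, 6.75, 4.68 and 7.88 CPM at E9.0 and 11.4, 14.9, 17.1, 18.1 and 14.1 CPM at E9.5. Its imprinted locus on chromosome 2 holds several overlapping genes, Nespas on the other strand among them, so its level is uncertain. Igdcc3, outside the naming rule, an immunoglobulin superfamily receptor gene of early embryos, was at 269, 367, 294 and 362 CPM at E9.0 and 547, 561, 498, 715 and 576 CPM at E9.5, a rise of 0.84 (SE 0.12, adjusted p = 0.028).

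Pathway lists held almost no calls in the 9-library fit and some in the 68-library fit. None of the tested members of the BMP (27), FGF (18), Wnt (45), Notch (20) or retinoic acid (19) lists passed in the 9-library fit, and of 17 hedgehog genes only Foxf1 did. In the 68-library fit the BMP list had 3 higher and 1 lower, FGF 1 higher (Fgfrl1), Wnt 2 higher (Lgr6 and Notum) and 1 lower, Notch 1 higher (Dlk1) and retinoic acid 3 higher and 3 lower, where 2.17% of all genes were higher and 1.12% lower. When E9.5 replicate 3 was left out the counts were unchanged for BMP and FGF, Wnt had 2 higher and 2 lower, hedgehog 2 higher, Notch none and retinoic acid 2 higher and 2 lower. The ligand genes Fgf8, Bmp4 and Shh passed in neither fit. Fgf8 was at 18.2, 26.8, 15.7 and 23.6 CPM at E9.0 and 21.4, 30.4, 17.2, 28.1 and 23.8 CPM at E9.5, with a difference of 0.19 (SE 0.18). Bmp4 differed by 0.34 (SE 0.24), its highest value, 61.2 CPM, being in E9.5 replicate 3. Shh, at 0.611, 0.662, 0.896 and 1.45 CPM at E9.0 and 1.78, 1.19, 1.27, 2.35 and 1.43 CPM at E9.5, differed by 0.45 (SE 0.17). Among BMP genes, the ligand Gdf6 and the receptor Bmpr1b rose in the 68-library fit by 1.48 and 0.73, and the target Id1 fell by 0.46 on the log2 scale. Fzd7, a Wnt receptor gene, fell there at 164, 107, 146 and 84.3 CPM at E9.0 and 82.6, 71.1, 64.1, 54.9 and 70.8 CPM at E9.5 (adjusted p = 0.00023).

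Retinoic acid genes went both ways. Aldh1a3, whose enzyme makes retinoic acid, was at 45.9, 12.9, 32.4 and 14.7 CPM at E9.0 and 11.1, 9.81, 5.92, 9.85 and 8.56 CPM at E9.5. Cyp26c1, whose enzyme degrades it, was at 29.2, 28.3, 20.5 and 22.1 CPM at E9.0 and 12.5, 16.8, 6.76, 1.5 and 11.5 CPM at E9.5. Both fell in the 68-library fit, by 1.29 and 1.52 on the log2 scale (adjusted p = 0.0017 and 0.0063). The cellular binding protein gene Crabp2 and the retinal reductase gene Dhrs3 rose by 0.58 and 0.87 (adjusted p = 0.01 and 0.0023).

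Extracellular matrix genes changed in both directions. Of 70 tested none passed in the 9-library fit, and 4 rose and 4 fell in the 68-library fit (3 and 4 without E9.5 replicate 3). Of all genes tested 2.17% rose and 1.12% fell in the 68-library fit. Has2, whose enzyme makes hyaluronan, was at 188, 156, 175 and 139 CPM at E9.0 and 92.1, 86.5, 88.5, 40.7 and 78.7 CPM at E9.5. Hapln1, which links hyaluronan to proteoglycans, was at 140.2, 113, 149.6 and 118 CPM at E9.0 and 96.02, 70.7, 73.7, 49.97 and 71.4 CPM at E9.5. Both fell in the 68-library fit, by 1.13 and 0.86 on the log2 scale (adjusted p = 0.00034 and 0.0037). Fbln5, an elastic fibre gene, rose there at 1.22, 9.07, 2.39 and 8.96 CPM at E9.0 and 13.3, 19.3, 26.1, 18.2 and 17.4 CPM at E9.5. Mfap4, another, rose at 14.4, 28.8, 15.9 and 26.4 CPM at E9.0 and 35.2, 33.1, 45.5, 73.3 and 45.5 CPM at E9.5. The summed matrix level was 16300 CPM in E9.5 replicate 3 and 4535 to 5876 CPM in the other 8 libraries. None of these 4 genes lost its call without that library (adjusted p = 0.00047, 0.0074, 0.00097 and 0.00035).

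Cell surface genes of guidance and epithelium gave a mixed picture. Of 61 guidance genes 4 rose and 1, Plxna4, fell in the 68-library fit (4 and 2 without E9.5 replicate 3). In that fit 2.17% of all genes tested rose and 1.12% fell, the shares to set beside each count in this paragraph. The ephrin receptor genes Epha3, Epha4 and Epha7 rose by 1.47, 0.78 and 0.92, and the semaphorin gene Sema3c by 1.04. Epha3 was at 6.49, 30.6, 9.46 and 33.4 CPM at E9.0 and 55.2, 41.05, 35.5, 61.5 and 42.8 CPM at E9.5, with E9.0 replicates 1 and 3 again low. Of 32 surface epithelium genes 4 rose and 4 fell in the same fit (3 and 4 without that library), with 16 positive and 16 negative. Epcam, an adhesion gene of epithelium, was at 147, 143, 135 and 132 CPM at E9.0 and 93.8, 117, 114, 81.8 and 97.7 CPM at E9.5 and fell (-0.47, adjusted p = 0.024). Perp, a desmosome gene, rose by 1.14 (adjusted p = 0.0007). Of 39 tested cadherin and adhesion genes Itgb3 and Pcdh19 rose and Itga8 and Pcdh1 fell, and without that library 3 rose and 1 fell.

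Some early embryo genes fell in the 68-library fit. Lin28a, an RNA-binding protein gene of early embryos that blocks let-7 maturation, was at 212, 169, 189.6 and 169.5 CPM at E9.0 and 166, 155, 112, 86.5 and 128 CPM at E9.5. The groups did not overlap, as for 2.18% of all genes in this direction, but the difference of -0.54 (SE 0.17) passed in neither fit (adjusted p = 0.19 and 0.21). Its relative Lin28b was at 243, 222, 244 and 247 CPM at E9.0 and 269, 231, 211, 229 and 269 CPM at E9.5, a difference of 0.01 (SE 0.08). Of 26 tested early embryo genes 4 fell and 1, Mycl, rose in the 68-library fit, where 1.12% of all genes fell and 2.17% rose. Without E9.5 replicate 3, 2 fell and 1 rose there. In 7 of the 26 the groups did not overlap, with E9.5 lower, where 2.18% of all genes did. Otx2, a homeobox gene of anterior head, fell at 38.2, 26.6, 29.5 and 25.99 CPM at E9.0 and 19.9, 18.7, 17.8, 7.04 and 14.6 CPM at E9.5 (-0.96, adjusted p = 0.014), as did Sall1 (-0.92), Trim71, a let-7 target (-0.55), and the DNA methyltransferase gene Dnmt3b (-0.38). Nr6a1, a nuclear receptor gene of early embryos outside the list, fell in that fit by 1.09 on the log2 scale (adjusted p = 0.015).

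Some imprinted genes, expressed from 1 parental copy, rose. Of 35 tested, Magel2 and Gnas rose in the 9-library fit, and 7 rose and 1, Snrpn, fell in the 68-library fit, while 0.131% of all genes rose in the former and 2.17% rose and 1.12% fell in the latter. Leaving out E9.5 replicate 3, 5 rose and none fell there. Magel2, an imprinted gene of the Prader-Willi region, was at 6.11, 5.63, 2.59 and 9.46 CPM at E9.0 and 16.4, 22.9, 24.03, 60.2 and 34.2 CPM at E9.5, without overlap, and rose by 2.19 on the log2 scale (SE 0.36, adjusted p = 0.049). Asb4, Plagl1 and Dlk1 rose in the 68-library fit by 0.93, 1.14 and 0.85. The last 2 lost the call without E9.5 replicate 3 (adjusted p = 0.11 and 0.11), where Plagl1 reached 176 CPM. The growth regulators Cdkn1c, Igf2 and H19 passed in neither fit, with differences of 0.59 (SE 0.16), 0.25 (SE 0.21) and 0.15 (SE 0.13). Cdkn1c, a cell cycle inhibitor gene, was at 77.3, 99.2, 74.1 and 109.7 CPM at E9.0 and 127, 123, 133, 191 and 109.8 CPM at E9.5, without overlap.

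Growth and metabolism lists held few calls. None of 57 cell cycle genes passed in either fit, and their median difference was 0.018. Cytosolic ribosomal protein genes had 79 of 85 negative with a median of -0.097 and no call. In wildtype PA1 their median over the same stages was 0.239. All 13 mitochondrially encoded respiratory genes were positive with no call, where 7950 of all 16029 genes were positive. Summed, the 13 were at 3460 to 4058 CPM at E9.0 and 2794 to 6009 CPM at E9.5, and these ranges overlapped. Of 81 nuclear respiratory genes 1, Cox6b2, rose in the 68-library fit and none without E9.5 replicate 3. Of 43 glycolysis and hypoxia genes 32 were negative, and 1 rose and 2, Pfkl and Higd1a, fell in the 68-library fit (1 and 1 without E9.5 replicate 3). Ldhb, a lactate dehydrogenase gene, was the one that rose, at 64.1, 72.2, 35.5 and 71.02 CPM at E9.0 and 98.1, 80.9, 104, 229.7 and 144 CPM at E9.5 (1.05, adjusted p = 0.00095). In the same fit Pth1r, Trps1 and Bmpr1b rose and Mef2c fell among 13 cartilage and bone genes. Ier5 rose and Atf3 fell there among 32 immediate early and stress genes, Coro1a rose among 4 macrophage genes and Gpc3 among 10 yolk sac and liver genes. Of all genes tested 2.17% rose and 1.12% fell in the 68-library fit.

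The other rises in the 9-library fit were of varied function. Trpm1, a cation channel gene of pigment cells and retina, was at 0.687, 1.79, 1.09 and 2.901 CPM at E9.0 and 4.22, 7.197, 5.85, 10.6 and 6.25 CPM at E9.5 and rose by 1.6 (SE 0.27). Pltp, a phospholipid transfer protein gene, rose by 1.32 (SE 0.20, adjusted p = 0.028), Abat, of GABA breakdown, by 1.03 (SE 0.18), and Fndc3c1, a fibronectin type III domain gene on the X chromosome, by 0.93 (SE 0.13). Fndc3c1 and its neighbouring paralog Fnd3c2 both rose (0.90), and reads may be shared between them. Fnd3c2, like Art4 and Igdcc3, was outside the naming rule and picked with its values in view. Other genes outside the naming rule that rose were Snx31 (1.73), Ass1 (1.26), an arginine synthesis gene, Tmem200b (1.07), Cav1, of caveolae (0.85), and Klhl23 (0.46). Snx31, a sorting nexin gene, was at 0.534, 0.5296, 0.299 and 0.505 CPM at E9.0 and 2.11, 4.03, 4.58, 6.26 and 3.19 CPM at E9.5. Of the 35 genes 3 lie on the X chromosome: Gpr50, Fndc3c1 and Fnd3c2. Of the 528 genes 23 do, 4.36%, against 3.999% of all genes tested.

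Wildtype PA1 went through the same stages in 10 other libraries, which share no sample with these. Of the 35 genes 34 had the same sign of difference in wildtype PA1 and 18 had wildtype groups that did not overlap in that direction, where 7.20% of all genes had wildtype groups that did not overlap in either direction. The wildtype difference was the smaller in 34 of the 35, which were chosen on the other difference. The exception in sign was Cav1 (0.85 here and -0.26 in wildtype PA1). Of the 528 genes 482, or 91.3%, had the same sign, against 53.5% of all genes tested. Sox10 differed by -2.80 in wildtype PA1, Gpr50 by 2.04, Barx1 by 2.46, Magel2 by 1.71, Foxf1 by 1.22 and Cdh19 by -1.85. Wildtype Sox10 went from 22.7 ± 8.86 CPM (SD, n = 5) to 3.702 ± 5.13 CPM (SD, n = 5), and wildtype Barx1 from 30.2 ± 13.7 CPM (SD, n = 5) to 167 ± 51.4 CPM (SD, n = 5).

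The difference between the 2 steps was tested in 1 fit of 19 libraries. By limma 0 of 16761 genes passed, with 2565 at an unadjusted p under 0.05, and 0 passed with 68 libraries or by edgeR. Without E9.5 replicate 4, 1 gene passed: Polh, a DNA polymerase gene, with a difference of steps of 1.29 (adjusted p = 0.039). For Gpr50 the difference of steps was 1.21 (SE 0.66), for Barx1 0.63 (SE 0.77) and for Sox10 -0.45 (SE 0.74). These errors leave room for unequal steps, and missing the threshold does not show that the steps were alike.

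**Figure D4:**
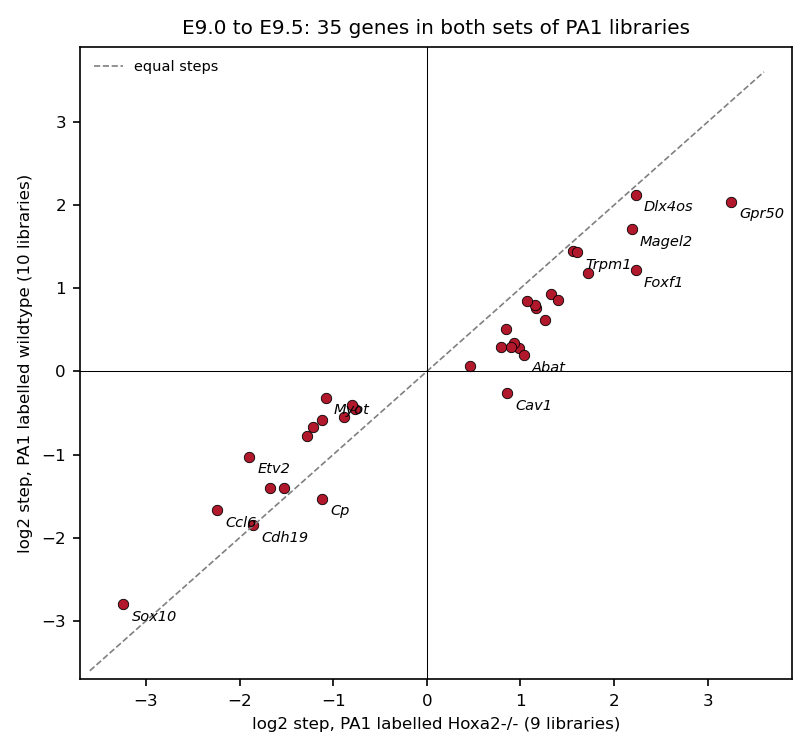
Step from E9.0 to E9.5 in wildtype PA1 (vertical axis) against that in PA1 labelled Hoxa2-/- (horizontal axis), both as log2(CPM + 1) differences of group means, for the 35 genes passing in the 9-library fit. The dashed line marks equal steps; 34 genes lie in the quadrants of equal sign and Cav1 does not, and the horizontal values are those on which the genes were chosen.

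PA2 of embryos with the same label gave a different step for 4 genes. PA1 and PA2 came from the same embryos, per the series text. By limma over 18 libraries 4 of 16944 genes (0.0236%) differed, all with a lower step in PA1: Rarres1, a retinoid-responsive gene, by -3.07 (SE 0.50, adjusted p = 0.031), Heyl, a Notch target, by -2.53 (SE 0.37, 0.015), Cp, the copper carrier ceruloplasmin, by -2.28 (SE 0.32, 0.015), and Myot, a muscle Z-disc gene, by -1.68 (SE 0.27, 0.031). With the embryo as a replicate block only Rarres1 passed (adjusted p = 0.042), edgeR called Cp and Heyl, and the 68-library fit called 186 genes (1.1%). Without PA1 E9.0 replicate 1 or 3 no gene passed.

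Heyl was at 11.4, 6.16, 12.8 and 7.88 CPM at E9.0 and 6.73, 5.22, 3.95, 3.13 and 7.06 CPM at E9.5 in PA1, and in PA2 went from 5.52 ± 1.72 CPM (SD, n = 4) to 21.2 ± 6.25 CPM (SD, n = 5). Rarres1 was at 1.76, 2.71, 2.89 and 1.32 CPM at E9.0 and 0.594, 0.237, 0.141, 0.522 and 0.747 CPM at E9.5 in PA1, and in PA2 went from 3.59 ± 2.89 CPM (SD, n = 4) to 16.7 ± 10.9 CPM (SD, n = 5). Cp was at 2.67, 2.85, 4.48 and 2.27 CPM at E9.0 and 1.52, 0.554, 0.846, 0.652 and 0.747 CPM at E9.5 in PA1, against 1.53 ± 0.527 CPM (SD, n = 4) and 4.83 ± 1.88 CPM (SD, n = 5) in PA2. Myot was at 4.05, 4.899, 4.08 and 3.91 CPM at E9.0 and 1.52, 1.898, 1.76, 1.24 and 1.02 CPM at E9.5 in PA1, against 0.593 ± 0.478 CPM (SD, n = 4) and 1.36 ± 0.461 CPM (SD, n = 5) in PA2. All 4 were lower at E9.5 than at E9.0 in mean in PA1 and higher in mean in PA2. The PA2 libraries at E9.0 had the widest spread of the 16 groups of the series, a median SD of 0.263. Sox10 also had a smaller difference in PA2, -1.47, but the test of the difference gave adjusted p = 0.53.

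The stages after E9.5 place these values. Sox10, at 1.07 ± 0.59 CPM (SD, n = 5) at E9.5, was at 0.281 ± 0.212 CPM (SD, n = 5) at E10.0 and 0.161 ± 0.151 CPM (SD, n = 3) at E10.5. Barx1 was at 224 ± 37.2 CPM (SD, n = 5) at E10.0 and 178 ± 12.1 CPM (SD, n = 3) at E10.5, near its E9.5 mean of 180.0 CPM. Lhx6 and Bcl11a, whose E9.5 values were low except in replicate 4, stood at 22.3 ± 4.89 CPM (SD, n = 5) and 20.2 ± 5.5 CPM (SD, n = 5) at E10.0. E9.5 replicate 4, with 16.1 and 16.3 CPM of these genes, lay at the low end of their E10.0 ranges, 16.1 to 29.3 and 15.5 to 29.8 CPM. Lin28a was at 61.6 ± 13.2 CPM (SD, n = 5) and Has2 at 34.9 ± 3.99 CPM (SD, n = 5) at E10.0. For Lin28a and Has2, E9.5 replicate 4, at 86.5 and 40.7 CPM, lay above all E10.0 libraries, which reached 81.7 and 38.3 CPM. The step from E9.5 to E10.0 shares the E9.5 libraries with the first step. Tested against the first step by limma, it differed for 0 of 16511 genes, with 858 at an unadjusted p under 0.05 and 0 by edgeR. In the 68-library fit 1 gene passed (0.00606%), Enpp2, the enzyme that makes lysophosphatidic acid, by 2.75 (SE 0.52). Without E9.5 replicate 4, 15 genes passed.

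**Figure D5:**
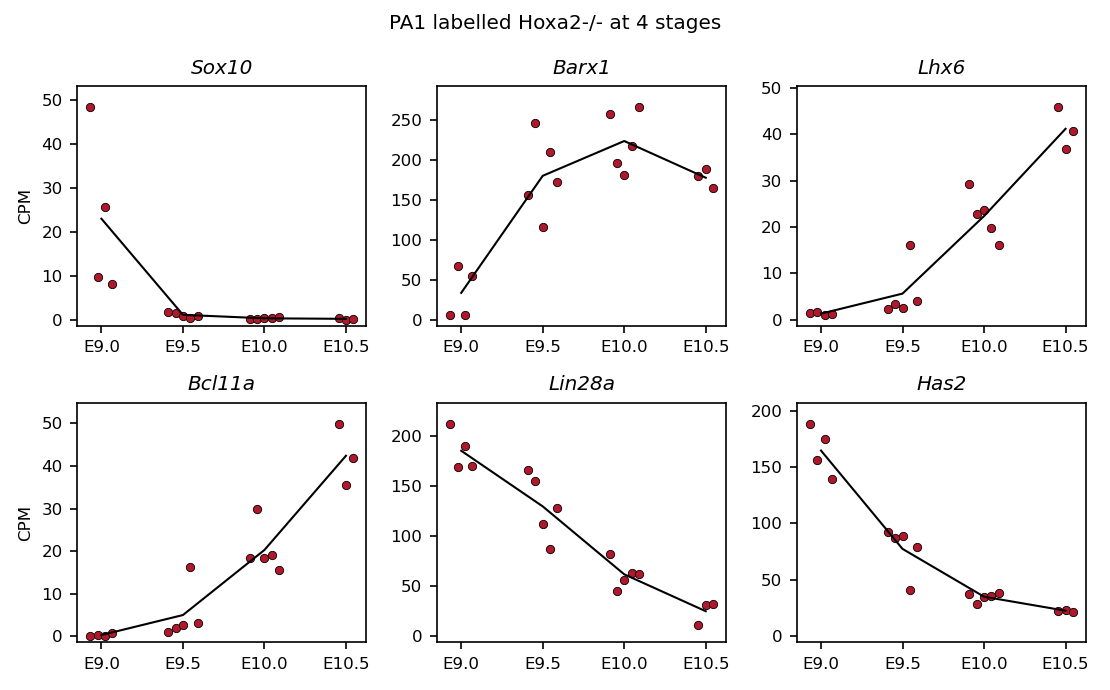
CPM in each PA1 library labelled Hoxa2-/- (vertical axis, linear, scaled per gene) at E9.0 (4 libraries), E9.5 (5), E10.0 (5) and E10.5 (3) for 6 genes; points are libraries and the line joins group means. Sox10 is below 2 CPM from E9.5 on, and 1 E9.5 library, replicate 4, lies among the E10.0 libraries for Lhx6 and Bcl11a.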

How the data were processed

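RNA of dissected arches was amplified with a SMART-seq v4 kit and made into Nextera XT libraries, per the labels' protocols. The submitters' processing notes name bcl2fastq 2.18, TopHat2 2.1.1, R 3.3.2 and the build mm10, and the gene counter is not given in the sources used here. The table the authors deposited holds a CPM-like signal for 21948 Ensembl genes in 68 libraries. All its values are whole multiples of what 1 read is worth in their library (100%, tolerance 0.01 reads), so reads were recovered. The totals of the 9 libraries studied were 1008895.7 to 1051958.9 CPM and 10421916 to 16217111 reads, and 3 reads corresponded to 0.1892 to 0.2987 CPM, which covers counting error only. Reads carry no molecular identifiers. Over 16 replicate pairs the chi-square per degree of freedom was 6.34 to 33.7, more than sampling noise gives, so each library was counted as its own replicate.

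Gene symbols, positions and strands came from GENCODE M21 (21921 of 21948 IDs matched), and promoter sequences from RefSeq on GRCm38.p6. The main test was limma 3.58.1 (R 4.3.3) with trended variance on log2(CPM + 1), for genes with at least 1 CPM in at least 4 of the 9 libraries, with Benjamini-Hochberg adjusted p under 0.05. A pseudocount of 1 understates the change of low genes. The 68-library fit estimates the variance over all 16 groups for the same contrast and genes. Differences of steps were interaction terms. Alternatives were pseudocounts of 0.25 and 5, other filters, median-of-ratios scaling, a sex covariate (sex read from Xist and Y-linked genes), library weights, a replicate block, edgeR 4.0.16 quasi-likelihood on recovered reads and leaving out each library. Tables were made with Python 3.11.15, pandas 2.3.3 and scipy 1.17.1.

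The naming rule took the 12 genes a direction with the largest passing differences and non-overlapping groups, up to 4 passing genes a direction from each of 33 lists, up to 5 a direction for differences of steps (all with a mean of at least 5 CPM in the higher group), and 28 genes given whatever their result. Where fewer than 5 genes passed for a difference of steps, all were named at any level. The comparison and lists were chosen with earlier results of these data known. Same-numbered libraries at E9.0 and E9.5 did not deviate together (correlations -0.02 to 0.11 over 4 pairs), whereas PA1 and PA2 of 1 number come from the same embryo, per the series text. A few genes counted in the lists are not reported here by name.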

Additional observations from a re-analysis of the deposited data

Results flagged for a closer look

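Leaving aside 7 genes chosen because they were high in E9.5 replicate 3, 184 sets of values of 1 gene in 1 stage group, with a highest value of at least 5 CPM, were examined. In 13 of them the highest or lowest library was separated from the rest by more than Dixon's critical value. Chance alone does this in about 1 set in 20 where values are normal and genes are not chosen by their values. Some genes, Msx1, Crabp2, Has2 and Ebf3 among them, were chosen after their values were seen, so that rate is no yardstick here. Sets from the same libraries are not independent. Of the 13, 10 came from E9.5 replicate 4 and 2 from E9.5 replicate 3. In E9.5 replicate 4 the values were 16.3 CPM for Bcl11a, 9.3 CPM for Bcl11b, 16.1 CPM for Lhx6, 55.5 CPM for Lhx8, 15.0 CPM for Hand2, 190.6 CPM for Cdkn1c, 257.8 CPM for Msx1, 260.1 CPM for Crabp2 and 12.3 CPM for Ebf3, each the highest of its group, and 40.7 CPM for Has2, the lowest. In E9.5 replicate 3 they were 135.4 CPM for Hand1, 57.6 CPM for Upk3b, 93.3 CPM for Lrrn4, 135.6 CPM for Bnc1, 1821.7 CPM for Col1a1, 920.8 CPM for Lum, 2506.6 CPM for Postn and 92.6 CPM for Dcn, each the highest, and 67.2 CPM for Sox9, the lowest. The 7 genes from Upk3b to Dcn are those chosen for being high in that library, so their separation is a description. At E9.0, Lin28b was lowest in replicate 2 at 222.2 CPM.

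For 4 genes the step from E9.0 to E9.5 differed between PA1 and PA2 of embryos labelled Hoxa2-/- by limma's interaction term: Cp by -2.28, Myot by -1.68, Heyl by -2.53 and Rarres1 by -3.07 on the log2 scale. With the embryo as a replicate block only Rarres1 passed (adjusted p = 0.042), and without PA1 E9.0 replicate 1 or 3 no gene did.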

How the results depend on the processing

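The 9-library count of 35 genes became 17 with a pseudocount of 0.25, 20 with one of 5, 20 with no filter, 11 with a filter of 5 CPM, 18 with median-of-ratios scaling, 0 with a sex covariate, 528 with all 68 libraries, 124 with library weights and 17 by edgeR (all among the 35). The replicate block called 30 genes, 15 of them among the 35, and 2 of 4 E9.0 libraries correlated best with their own number. Leaving out 1 library gave 0 to 61 genes. With 68 libraries it gave 202, 481, 187 and 600 without E9.0 replicates 1 to 4, and 731, 615, 401, 240 and 471 without E9.5 replicates 1 to 5. Without E9.0 replicate 3 edgeR called 0, and without E9.5 replicate 3 it called 14. These fits with 68 libraries or edgeR and a library left out were chosen after seeing the data. All 35 genes kept their sign in the 9-library fits with a library left out, with adjusted p up to 0.19. The difference from the wildtype step called 0 genes in every alternative except 1 gene without E9.5 replicate 4 (leaving out a library gave 0 to 1). The difference from PA2 called 4 genes, 1 with a filter of 5 CPM, 186 with 68 libraries, 1 with the embryo as a replicate block, 2 by edgeR and 0 to 6 with a library left out. The later step called 0 genes, 1 with 68 libraries, and 0 to 15 with a library left out. The cause of these changes was not tested.

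For the named genes, 2377 alternative values kept direction and call, 495 newly passed, 445 no longer passed and 21 changed sign. The sign changes concern differences near 0. Lin28b was -0.03 with the replicate block and -0.03 to 0.06 with a library left out (-0.02 without E9.0 replicate 2 and -0.03 without E9.5 replicates 1 or 5 in the 68-library fit). Pitx1 was -0.05 to 0.31 (-0.05 without E9.0 replicate 3, -0.00 without E9.5 replicate 2 and -0.01 without E9.5 replicate 4, with 68 libraries too). Dlx5 was -0.01 to 0.36 (-0.01 without E9.0 replicate 3). Pdgfra was -0.01 with library weights, -0.03 to 0.13 with a library left out (-0.00 without E9.0 replicate 4 and -0.03 without E9.5 replicate 3, with 68 libraries too) and -0.02 by edgeR without E9.5 replicate 3. Genes near 3 reads, such as Foxd3, could not be resolved at this depth.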

Other observations

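Some further genes with large differences were chosen after their values were seen. Mab21l1, a gene of eye and arch mesenchyme, was at 2.83, 18.2, 5.78 and 23.8 CPM at E9.0 and 30.8, 29.8, 24.7, 57.9 and 35.04 CPM at E9.5, and rose in the 68-library fit (1.74, adjusted p = 0.0014). Plcg2, a phospholipase gene of blood cells, was at 222, 95.6, 198 and 74.5 CPM at E9.0 and 67.9, 56.4, 30.4, 21.7 and 47.9 CPM at E9.5 and fell in that fit by 1.66 on the log2 scale (adjusted p = 0.00022).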
